A study of Mus musculus with 7 samples.

Results

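The genes described here encode the proteins that fuse synaptic vesicles with the presynaptic membrane, together with their close relatives. They were the protein-coding rows of the gene count table whose symbols belong to the synaptotagmins, syntaxins, syntaxin-binding proteins (Stxbp5l left out), vesicle-associated membrane proteins (VAMPs), Snap23, Snap25, Snap29 and Snap47, complexins, RIMs, Munc13s, synapsins or synaptophysin. That choice used symbol and gene type and no measured value, though it was made with earlier results of these data known. It gave 65 genes out of 38924 gene records, of which 22572 are protein coding: 17 synaptotagmins, 15 syntaxins, 7 syntaxin-binding proteins, 6 VAMPs, 4 SNAPs, 4 complexins, 4 RIMs, 4 Munc13s, and 4 genes for the synapsins and synaptophysin. A choice by symbol also takes in relatives that work elsewhere in the cell, such as the Golgi and endosomal syntaxins.

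Polyadenylated RNA was sequenced from dissected hippocampus of untreated adult mice. Ammon's horn, the part of the hippocampus that holds the CA fields, was sampled from wild-type mice (3 libraries) and from homozygous Khdrbs3 deletion mice (3 libraries). The dentate gyrus, the part that holds the granule cells, was sampled from wild-type mice (1 library). The deletion is the Tstar null allele, bred for 8 generations onto C57Bl6, and the labels give that background for all 3 groups. No promoter, Cre driver or cell type restricts the deletion in the labels, and they do not say whether animals were pooled or whether each library came from its own mouse. All p-values therefore measure the spread between these libraries, which may be technical.

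In background, a vesicle that reaches the active zone is held there by RIM scaffolds and made ready by Munc13. Fusion is driven by the SNARE complex, in which a VAMP on the vesicle zips up with a syntaxin and a SNAP protein on the plasma membrane, helped or held back by syntaxin-binding proteins. Complexins bind the assembled complex, and Syt1, Syt2 and Syt9 are the fast calcium sensors that trigger it. Synapsins tether vesicles in reserve, and synaptophysin is an abundant vesicle membrane protein that binds VAMP2. Khdrbs3 encodes T-STAR, an RNA-binding protein known for regulating alternative exons of neurexin genes in the brain.

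Snap25 shows how splicing can alter this machinery, since 2 copies of its exon 5 are used in alternative transcripts and change the encoded protein. Their sequences are shown because the share of exon 5a is one of the readouts below. Both are whole coding exons of 118 bases on the plus strand of GRCm38 (mm10), exon 5a at chr2:136769743-136769860 and exon 5b at chr2:136770057-136770174. The copies are 73.7% identical, and capitals mark the 31 bases that differ between them.
Exon 5a: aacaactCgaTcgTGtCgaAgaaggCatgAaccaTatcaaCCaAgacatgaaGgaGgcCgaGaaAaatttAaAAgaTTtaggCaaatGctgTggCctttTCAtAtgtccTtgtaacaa
Exon 5b: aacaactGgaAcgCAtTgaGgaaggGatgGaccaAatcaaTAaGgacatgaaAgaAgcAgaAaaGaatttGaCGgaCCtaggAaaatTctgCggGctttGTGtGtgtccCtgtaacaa

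The sequences just upstream of Stxbp6 and Cplx3 are shown because these genes had the largest differences between dentate gyrus and Ammon's horn, in opposite directions. Each is the 250 bases before the RefSeq gene start in GRCm38.p6, on the minus strand: chr12:45074484-45074733 for Stxbp6 and chr9:57606282-57606531 for Cplx3. In such windows 4 motifs were searched on both strands: the E-box CACGTG, the cAMP response element TGACGTCA, the GC box GGGCGG and TATAAA. Capitals mark the matches, which are descriptions of the letters and not evidence of a factor's binding.
Stxbp6: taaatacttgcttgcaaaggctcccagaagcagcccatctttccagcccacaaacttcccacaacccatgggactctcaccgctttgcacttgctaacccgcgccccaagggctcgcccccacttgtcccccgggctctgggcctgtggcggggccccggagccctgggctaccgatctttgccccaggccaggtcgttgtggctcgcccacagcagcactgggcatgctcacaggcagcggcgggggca
Cplx3: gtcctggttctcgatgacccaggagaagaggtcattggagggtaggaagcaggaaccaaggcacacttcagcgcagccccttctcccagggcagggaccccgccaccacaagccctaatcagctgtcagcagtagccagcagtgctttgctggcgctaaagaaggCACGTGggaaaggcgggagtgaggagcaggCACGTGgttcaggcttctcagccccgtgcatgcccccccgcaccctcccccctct

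The Cplx3 window held 2 copies of CACGTG, beginning 85 and 55 bases before the gene start, and the Stxbp6 window held none of the 4 motifs. RefSeq windows were matched by symbol for 47 of the 65 genes, 59 windows in all. CACGTG was in 8 of these 59 (13.6%) and in 6.02% of all 32851 windows of the same length. GGGCGG was in 36 of the 59 (61.0%) against 32.7% of all, TATAAA in 2 (3.39%) against 12.4%, and TGACGTCA in 1 (1.69%) against 1.55%. The median GC content was 60.4% in the windows of these genes and 52.4% in all windows.

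Library totals ran from 50230733 to 67692326 in the gene table and from 29698245 to 39904606 in the exon bins. The 65 genes took between 1.30% and 1.42% of the gene-table counts. Khdrbs3 checked the labels through exon bin 2, which had 808, 1103 and 964 reads in the wild-type Ammon's horn libraries, 506 in the dentate gyrus and 6, 9 and 7 in the knockout libraries. Its whole-gene count does not show the deletion, at 140 ± 4.40 CPM (mean ± SD, n = 3) in wild type and 199 ± 3.35 in the knockout. The dissection showed in the granule cell and CA1 markers. Summed over 7 granule cell genes, the level was 65.9 to 84.1 CPM in wild-type Ammon's horn libraries. It was 60.7 to 84.8 in the knockout ones and 598 in the dentate gyrus. In the same order, 5 CA1 genes summed to 733 to 758, 672 to 706 and 95.3 CPM. The sum of 6 CA2 and CA3 markers was similar in the regions, at 341 to 360, 348 to 357 and 363 CPM. Taken singly, 1 of them was called higher and 2 lower in the dentate gyrus. No marker listed for any cell type was at 0 counts in any library. In such bulk tissue, fewer cells of a type and less RNA per cell cannot be told apart. Choroid plexus genes varied between dissections, summing to 151, 38.9 and 21.2 CPM in wild-type Ammon's horn libraries, 791, 19 and 734 in the knockout ones and 267 in the dentate gyrus.

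Levels of different genes were compared per exon length, as exon-bin reads per kb of exon scaled to library size (RPKM), for the 41 genes whose bins matched a gene model. The length counts every annotated exon, so a gene with a long and rarely used piece gets a low value. In wild-type Ammon's horn the highest was Snap25, the plasma membrane SNARE, at 411, 376 and 345 RPKM. Cplx1 followed at 310 ± 8.88 RPKM (SD, n = 3), then Syp at 259 ± 6.86 and the main vesicle SNARE Vamp2 at 255 ± 6.70. Syp and Vamp2 were closer to each other than their spread. Cplx2 was next at 234 ± 9.99.

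A further group lay between 147 and 193 RPKM. It held the calcium sensor Syt1 at 193 ± 11.7, Snap47 at 192 ± 4.89, Syn1 at 188 ± 14.6 and Syt11, a synaptotagmin that does not bind calcium, at 147 ± 5.03. The first 3 of these did not differ beyond their spread. The neuronal plasma membrane syntaxin Stx1a was lower, at 56.7 ± 3.07 RPKM. Munc13 and RIM genes with a matched length were lower again. Unc13a (Munc13-1), the priming factor, was at 27 ± 1.36. The next Munc13 with a matched length was Unc13c at 3.90 ± 1.17. Rims2 and Rims4, the highest RIMs with a matched length, were at 11.6 ± 1.04 and 11.3 ± 1.08. Unc13b and Rims1 had no matched length, so their place in this order is not known. Among VAMPs with a matched length the second was Vamp4, of the Golgi and endosomes, at 18.3 ± 0.69. Among syntaxin-binding proteins with a length, Stxbp5 (tomosyn) and Stxbp3a led at 10.3 ± 0.81 and 5.46 ± 0.15, while Stxbp6 had no matched length.

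**Figure D1:**
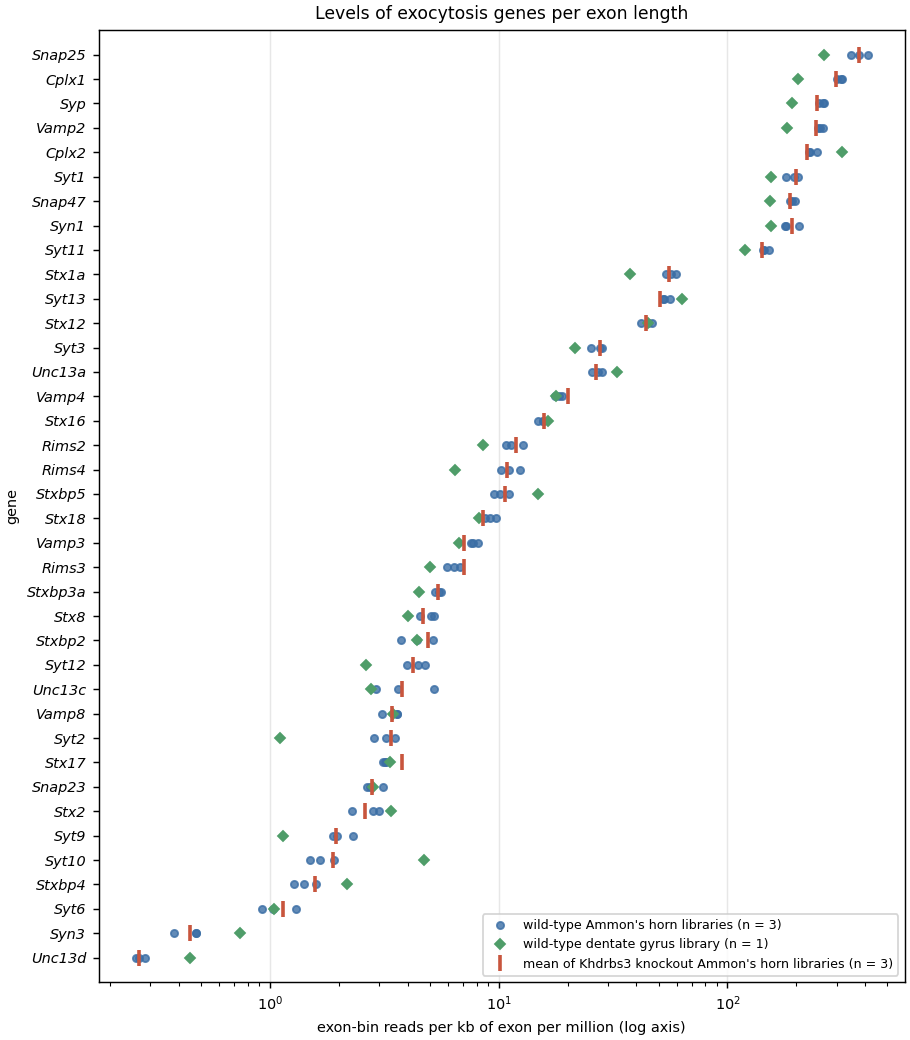
Levels of 38 exocytosis genes in RPKM of exon-bin reads (log axis), ordered by the mean of wild-type Ammon's horn. Blue points are single wild-type Ammon's horn libraries, red ticks the mean of 3 knockout libraries and green diamonds the dentate gyrus library. Snap25 is highest in Ammon's horn, and Cplx2 is the highest in the dentate gyrus.

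The order changed at the top in the dentate gyrus, as the 2 main complexins moved in opposite directions and Snap25 was lower. Cplx2 was at 318 RPKM there and Cplx1 at 203, the reverse of their order in Ammon's horn. Snap25 was at 264, Syp at 192 and Vamp2 at 183 RPKM. In the knockout the 6 highest genes kept their wild-type order, with Snap25 at 375 ± 9.49, Cplx1 at 297 ± 15.6 and Cplx2 at 222 ± 8.59 RPKM.

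The knockout comparison asked whether loss of T-STAR altered the level of these genes in Ammon's horn, and no change was detected. Levels from here on are TMM-scaled CPM of the gene table, and are compared only between libraries of 1 gene. Of the 65 genes, 63 passed edgeR's low-count filter, and Syt8 and Stxbp3b, both under 0.3 CPM in each library, did not. None of the 63 had an adjusted p under 0.05 by edgeR's quasi-likelihood test. Over all 22830 genes tested, 0.0745% did, 0.0657% higher and 0.00876% lower in the knockout. The smallest edgeR adjusted p among the 63 was 0.391, and 3 genes (4.76%) had an unadjusted p under 0.05, against 8.38% of all genes. DESeq2 and limma-voom likewise called none, with 3 genes each at an unadjusted p under 0.05, and sums of exon bins gave no call among 60 genes (0.0523% of all). The median log2 fold change was -0.00087 over the 63 genes and 0.0015 over all genes.

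The 95% interval of the change, taken for each gene on its own, limited its size given the spread between these libraries. For all 55 tested genes with a mean of at least 5 CPM in wild-type Ammon's horn, this interval lay within 1.5-fold in either direction. For 48 of the 63 genes it lay within 1.25-fold. At lower levels it could be wider, as for Cplx4, from -1.54 to 0.92 on the log2 scale. For Snap25 the log2 fold change, knockout minus wild type, was -0.05 ± 0.07 (SE). For Syt1 it was 0.04 ± 0.05 and for Vamp2 -0.10 ± 0.06.

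The 2 smallest unadjusted p values belonged to SNAREs of intracellular membranes. Vamp4 measured 67.9, 63.6 and 66.6 CPM in wild type and 70.9, 76.3 and 78.6 in the knockout, so every knockout library was above every wild-type one. Its log2 fold change was 0.19 ± 0.05 (SE; unadjusted p = 0.00588, edgeR adjusted p = 0.391). In exon-bin sums the groups of Vamp4 overlapped, and the log2 fold change was 0.13 ± 0.06 (edgeR unadjusted p = 0.0504). Stx17, the syntaxin of autophagosomes, measured 15.3, 15.1 and 15.4 CPM in wild type and 17.2, 18.4 and 17.7 in the knockout. Its groups did not overlap in the gene table or in exon-bin sums. The log2 fold change in the gene table was 0.22 ± 0.07 (unadjusted p = 0.00972, edgeR adjusted p = 0.449). Rims3, a short RIM protein, was at 54.9, 47.7 and 52.7 against 55.3, 57.7 and 59.8 CPM, a log2 fold change of 0.15 ± 0.06 (unadjusted p = 0.032, edgeR adjusted p = 0.536).

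On the other side stood endosomal and plasma membrane syntaxins. Stx6, of the trans-Golgi network and endosomes, was at 62.9 ± 0.406 CPM (SD, n = 3) in wild type and 58.0 ± 3.35 in the knockout. Stx4a, a plasma membrane syntaxin, was at 44.9 ± 1.75 and 41.6 ± 0.421. The endosomal Stx8 was at 26.0 ± 2.79 and 23.3 ± 1.55, and its groups overlapped. The edgeR adjusted p values of these genes were 0.595, 0.597 and 0.658. Counting all 63, the libraries of the 2 groups did not overlap for 6 genes (9.52%), against 13.3% of all genes tested. These were Rims3, Stx17 and Vamp4, higher in the knockout (6.87% of all genes), and Stx4a, Stx6 and Syp, lower (6.39%). In exon-bin sums Rims3 and Stx17 stayed apart, while the groups of Vamp4, Stx4a and Stx6 overlapped.

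The choroid plexus genes that varied between dissections were high in 2 knockout libraries, as given above. The 8 oligodendrocyte markers summed to 3706 to 3955 CPM in the knockout against 4339 to 4488 in wild type, and 6 microglia markers to 321 to 335 against 350 to 366. With these choroid-rich libraries left out, or the choroid level as a covariate, edgeR still called none of the 63 genes.

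**Figure D2:**
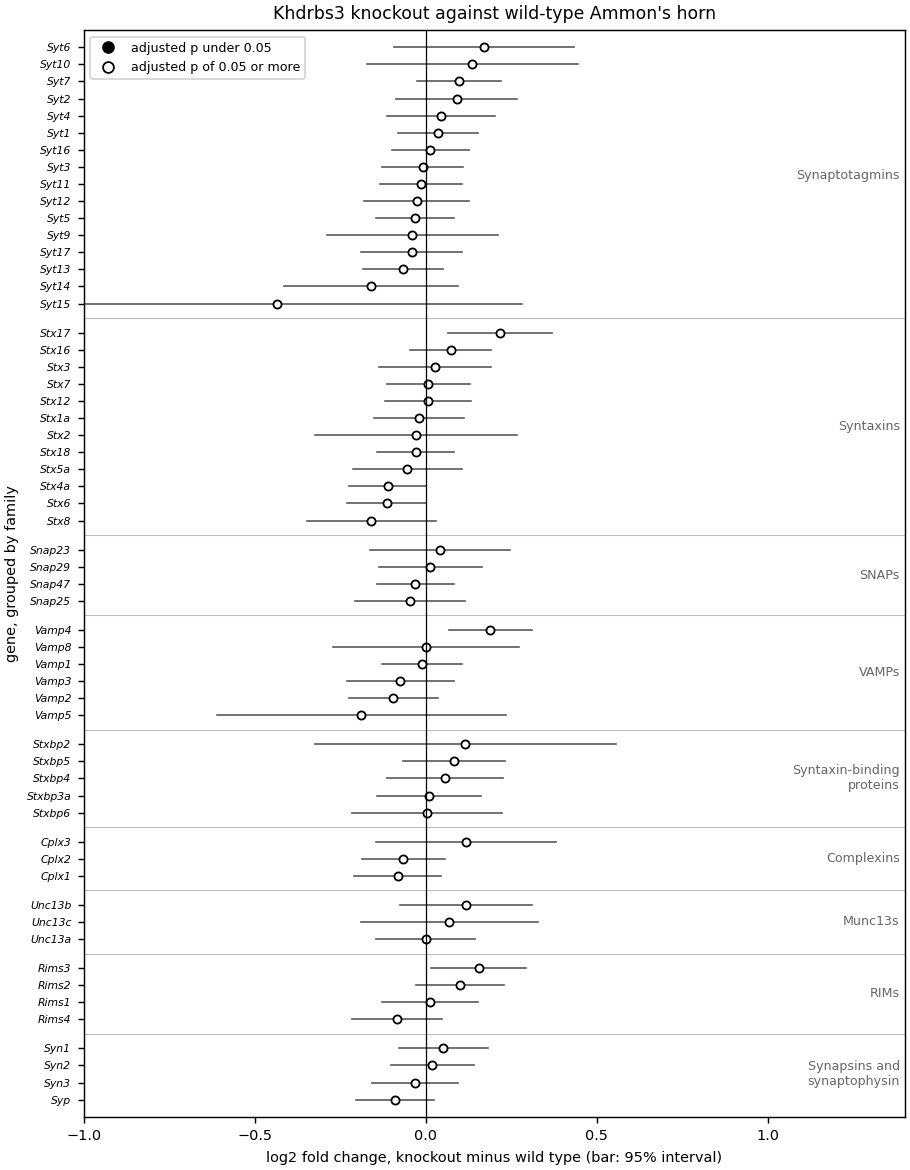
Log2 fold changes, knockout minus wild-type Ammon's horn, with 95% intervals, for 57 tested genes of at least 1 CPM in wild type, grouped by family. No point is filled, since none had an adjusted p under 0.05. Vamp4 and Stx17 lie farthest to the right of 0 relative to their intervals.

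The dentate gyrus comparison asked where the 2 regions differ in their release machinery. Of 64 genes tested, 34 (53.1%) differed between the dentate gyrus library and wild-type Ammon's horn at an edgeR adjusted p under 0.05, against 22% of the 24486 genes tested. The dentate gyrus had more RNA for 10 (15.6%; all genes 11.2%) and less for 24 (37.5%; all genes 10.9%). Because most of these genes are well expressed, a second background was taken: of 13237 genes with at least 5 CPM over the wild-type libraries 33.7% were called, 16.4% higher and 17.3% lower, and of the 56 exocytosis genes of that level 33 (58.9%) were called, 10 higher and 23 lower. Changes of at least 2-fold were few, 2 genes higher (Stxbp6, Syt10) and 2 lower (Cplx3, Syt2), against 2.22% and 1.76% of all genes, 3.98% together. The median log2 fold change was -0.03 over the 64 genes and -0.01 over all genes.

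These tests rest on 1 dentate gyrus library, whose spread was taken to equal that of the Ammon's horn libraries. All 24 lower genes were below each of the 3 wild-type Ammon's horn libraries, and all 10 higher genes were above each of them. The calls were made on these same libraries, so this adds no support to them. Over all genes tested, called or not, 35.3% were below and 36.5% above each of the 3. Of the 34 genes, 29 were called in all of 6 fits that each left out 1 Ammon's horn library. Among those that lost their call, Syt13 did so without wild-type library 1 or 2 (largest adjusted p = 0.0575, edgeR), Stxbp4 without wild-type library 2 or 3 (0.0672) and Syt17 without wild-type library 1 (0.0518).

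**Figure D3:**
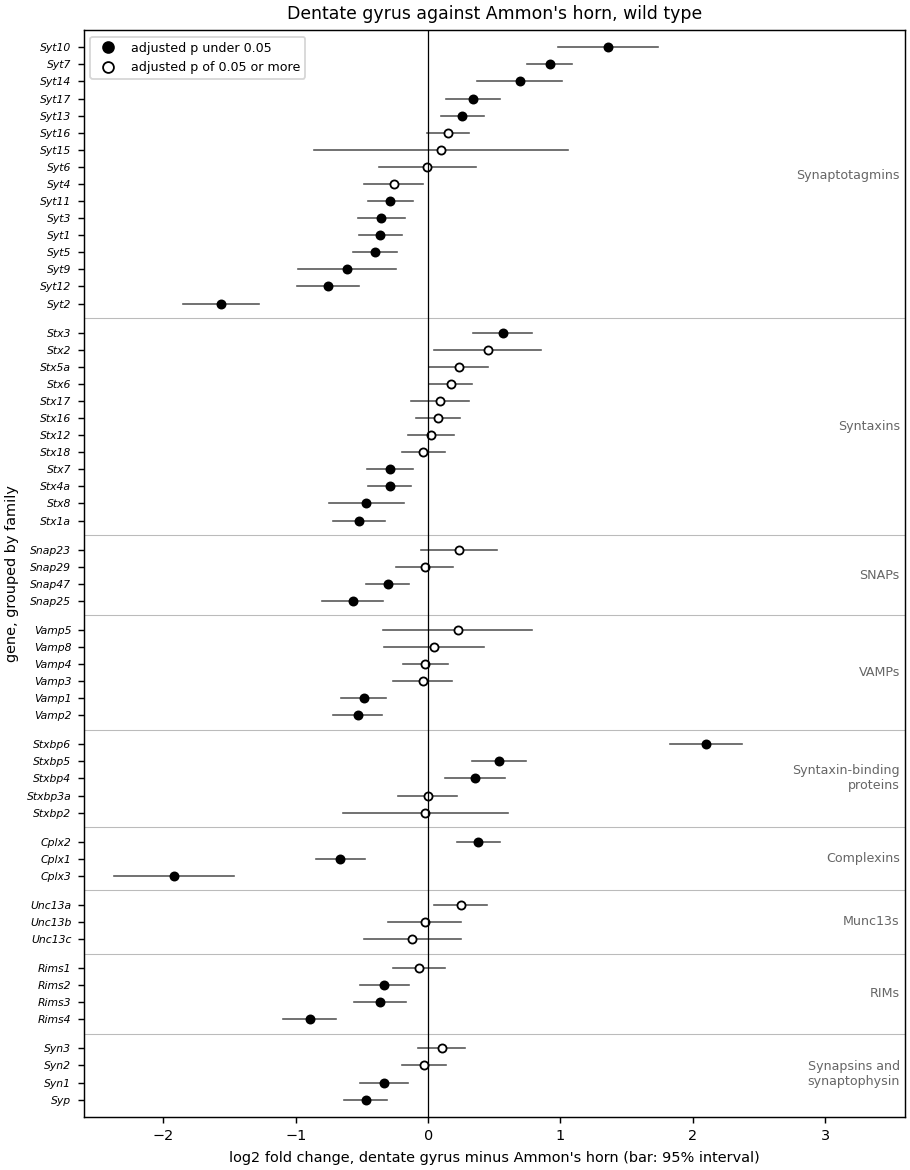
Log2 fold changes, dentate gyrus minus wild-type Ammon's horn, with 95% intervals, for 57 tested genes of at least 1 CPM in wild-type Ammon's horn, grouped by family. Filled points have an adjusted p under 0.05. Filled points lie to the left of 0 in most families, while Stxbp6, Syt10 and Syt7 lie to the right.

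Of the SNAREs of synaptic vesicle fusion, Snap25, Vamp2, Stx1a and Vamp1 were each lower in the dentate gyrus. Snap25 measured 2733, 2377 and 2200 CPM in wild-type Ammon's horn libraries, 2360, 2411 and 2309 in the knockout ones and 1650 in the dentate gyrus, below all 6 others. Its log2 fold change, dentate gyrus minus wild-type Ammon's horn, was -0.57 ± 0.10 (SE; edgeR adjusted p = 0.00319). Vamp2 fell in the same comparison from 981, 875 and 898 CPM to 637, a log2 fold change of -0.53 ± 0.08 (edgeR adjusted p = 0.0014). Stx1a, a presynaptic syntaxin, was at 82.0, 92.4 and 89.1 against 61.5 CPM, -0.52 ± 0.09 (edgeR adjusted p = 0.0022). Vamp1, the second synaptobrevin, was at 102, 101 and 97.6 against 71.6 CPM (-0.49 ± 0.08; edgeR adjusted p = 0.00128).

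The SNAREs of other membranes gave a mixed picture. Stx8, Stx7 and Stx4a were called lower, with Stx8 at 26.0 ± 2.79 against 18.9 CPM (log2 fold change -0.47 ± 0.13, edgeR adjusted p = 0.0241). Stx3, a plasma membrane syntaxin also used in ribbon synapses and dendrites, was the syntaxin that rose, from 15.6, 15.9 and 15.1 CPM to 23.1 (0.57 ± 0.10; edgeR adjusted p = 0.00273). Of 6 VAMPs tested 2 were lower, and Snap25 and Snap47 were lower of 4 SNAPs. Vamp4, which had the smallest p in the knockout comparison, was at 65.3 CPM in the dentate gyrus, within the wild-type range.

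Syntaxin-binding proteins held the largest rise. Stxbp6 (amisyn), which binds syntaxin and Snap25 through a VAMP-like domain, measured 50.9, 37.8 and 48.5 CPM in wild-type Ammon's horn libraries, 43.1, 48.1 and 46.1 in the knockout ones and 197 in the dentate gyrus. That is 4.30 times the wild-type mean, and the Ammon's horn libraries all lay far below it (log2 fold change 2.10 ± 0.12, 95% interval 1.83 to 2.37, edgeR adjusted p = 3.41e-06). Stxbp5 (tomosyn), an inhibitor of SNARE assembly, rose from 87.5, 82.0 and 93.9 CPM to 128 (0.53 ± 0.09; edgeR adjusted p = 0.00217). Stxbp4 (Synip) was at 25.7, 24.6 and 24.9 against 32.2 CPM (0.35 ± 0.10; edgeR adjusted p = 0.0324). These 3 were the syntaxin-binding proteins called higher, of 7 tested.

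Of 16 synaptotagmins tested, some of them calcium sensors and some not, 5 were higher and 7 lower. Syt7, the slow high-affinity sensor of asynchronous release and facilitation, measured 146, 155 and 148 CPM in wild-type Ammon's horn libraries, 152, 169 and 158 in the knockout ones and 284 in the dentate gyrus (log2 fold change 0.92 ± 0.08, edgeR adjusted p = 2.45e-05). The fast sensors went down: Syt1 was at 1393, 1317 and 1448 against 1085 CPM (-0.36 ± 0.07; edgeR adjusted p = 0.0055). Syt2 was at 26.6, 23.1 and 22.1 against 8.13 CPM (-1.56 ± 0.13; edgeR adjusted p = 2.53e-05). Syt9 was at 8.23, 8.12 and 9.90 against 5.75 CPM (-0.61 ± 0.17; edgeR adjusted p = 0.0237). Syt7 thus rose where Syt1, Syt2 and Syt9 fell, and each of them kept its direction and its call in all 6 fits without 1 Ammon's horn library.

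The remaining synaptotagmins included Syt10 and several that do not bind calcium. Syt10, a calcium sensor of peptide-containing vesicles, was at 3.31, 3.59 and 4.04 CPM in wild-type Ammon's horn, against 9.39 in the dentate gyrus (log2 fold change 1.36 ± 0.17, edgeR adjusted p = 0.000361). Syt14 was at 4.42 ± 0.272 against 7.17 CPM, Syt17 at 55.4 ± 5.07 against 70.3 and Syt13 at 194 ± 6.89 against 234, all called higher (edgeR adjusted p = 0.0071, 0.0239 and 0.0296). Syt12, a synaptotagmin without calcium binding, was lower at 28.6 ± 2.45 against 17.0 CPM (-0.75 ± 0.11), and Syt5 at 109 ± 3.47 against 82.9 (-0.40 ± 0.07). Syt3 and Syt11 were also called lower, and Syt4, Syt6, Syt15 and Syt16 were not called. In sums of exon bins in place of the gene table, Syt14, Syt17 and Stx8 were not called, where 29.3% of all genes were (edgeR adjusted p = 0.0554, 0.289 and 0.0685).

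Complexins moved apart. Cplx2 measured 1269, 1255 and 1386 CPM in wild-type Ammon's horn, against 1699 in the dentate gyrus, above every Ammon's horn library (log2 fold change 0.38 ± 0.07, edgeR adjusted p = 0.00447). Cplx1 measured 523, 553 and 569 CPM there and 348 in the dentate gyrus, below every one (-0.66 ± 0.08; edgeR adjusted p = 0.000368). Cplx3, a complexin best known from retinal ribbon synapses, was at 5.39, 6.48 and 6.16 CPM in the wild-type Ammon's horn libraries, 6.08, 7.42 and 6.07 in the knockout ones and 1.60 in the dentate gyrus (-1.92 ± 0.20; edgeR adjusted p = 0.000126). It fell below the level set for naming genes and was singled out after its values were seen. Cplx4 was at 0.175 CPM in wild type and was not called.

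**Figure D4:**
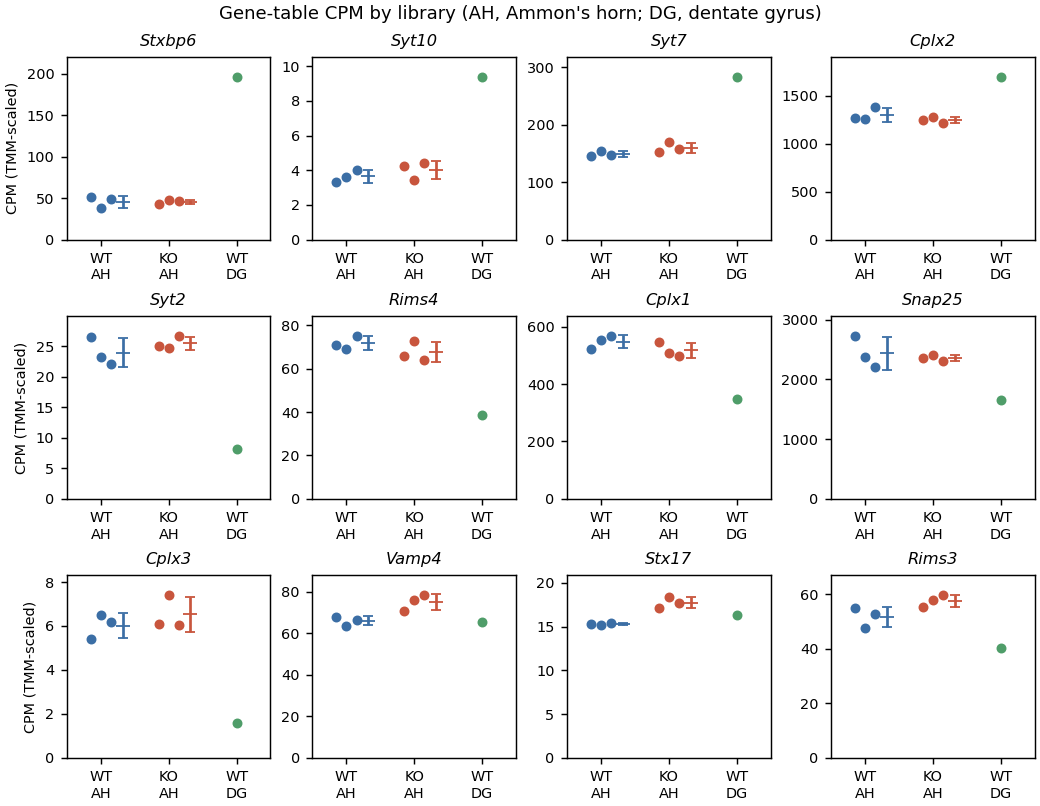
Gene-table levels (TMM-scaled CPM, axis from 0) by library for 12 genes: wild-type Ammon's horn in blue and knockout Ammon's horn in red (3 libraries each, with mean ± SD beside the points), wild-type dentate gyrus in green (1 library). Stxbp6 is at 197 CPM in the dentate gyrus against 37.8 to 50.9 in wild-type Ammon's horn, and Cplx1 and Cplx2 lie on opposite sides of their Ammon's horn libraries.

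At the active zone, 3 of 4 RIM genes were lower in the dentate gyrus and none was higher. Rims4, a short RIM, had the largest change, from 70.8, 69 and 75.3 CPM to 38.7 (log2 fold change -0.89 ± 0.09, edgeR adjusted p = 8.92e-05), and Rims2 and Rims3 had log2 fold changes of -0.33 and -0.36. Rims1, a full-length RIM scaffold, was at 149, 142 and 162 against 145 CPM, inside the wild-type range. No Munc13 gene was called: Unc13a was at 201, 215 and 216 against 251 CPM (0.25 ± 0.09; edgeR adjusted p = 0.0799), Unc13b at 35.0 ± 4.38 against 34.5 and Unc13c at 33.9 ± 6.99 against 31.3. In the exon-bin sums Unc13a was called, at 0.29 ± 0.09 (edgeR adjusted p = 0.0312). Whether the families differ was not tested.

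Of the vesicle proteins, Syp was at 1491, 1605 and 1501 CPM in wild-type Ammon's horn, against 1109.6 in the dentate gyrus (log2 fold change -0.47 ± 0.07, edgeR adjusted p = 0.00137). Syn1 was at 455, 464 and 514 against 381 CPM (-0.33 ± 0.08; edgeR adjusted p = 0.016), and Syn2 at 783 ± 41.3 against 769.5 CPM was not called. Syn3 gave unlike answers by source. Its gene-table count was 34.3 times its exon-bin reads, and the gene Timp3 lies inside its span on the opposite strand. In the gene table Syn3 had a log2 fold change of 0.10 ± 0.08 (edgeR adjusted p = 0.408), and in the exon-bin sums 0.74 ± 0.19 (edgeR adjusted p = 0.0117).

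Among the smaller decreases, Rims2, Rims3, Snap47, Stx4a, Stx7, Syn1, Syt1, Syt3 and Syt11 had log2 fold changes between -0.36 and -0.29. The 30 genes without a call included 23 of at least 5 CPM in wild-type Ammon's horn, with log2 fold changes between -0.26 (Syt4) and 0.45 (Stx2). Several genes share their span with others, and the sources used here do not say whether counting used strand. Syp overlaps the antisense gene Gm14703, Syn2 the genes Timp4 and Gm17482, and Vamp3 lies inside Camta1. Stxbp3a and Stxbp3b, on chromosomes 3 and 19, are related copies whose sequences were not compared here.

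Markers of other cell types besides granule and CA1 cells also differed between the regions. In the dentate gyrus library all 8 oligodendrocyte markers were lower, summing to 1523 CPM against 4339 to 4488 in wild-type Ammon's horn. Of 8 interneuron markers 6 were lower and none higher, summing to 454 against 562 to 638 CPM, and 3 of 4 mossy cell markers were higher, summing to 138 against 21.6 to 37.2. The part of these differences in the results above was not tested. Fitted without the mitochondrial, choroid plexus and oligodendrocyte marker genes, the counts stayed at 10 higher and 24 lower, and all 34 calls were kept. That fit only took those rows out, which can shift the scaling but leaves the counts of the 34 genes as they were. It therefore cannot show what part the marker differences have in these calls.

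Exon usage compared each exon bin with the rest of its gene. The 65 genes had 1241 bins. In the knockout comparison 839 bins in 58 genes had enough reads, and edgeR's exon-usage test called none. Over all 166154 bins tested it called 0.00301%. At an unadjusted p under 0.05 there were 8 member bins (0.954%), against 1.72% of all bins, and limma-voom also called none. By gene, with Simes' method, none was called (0.0411% of all genes). The smallest p was for bin 27 of Stxbp3a, a coding exon of 50 bases at chr3:108827573-108827622, with 36, 51 and 43 reads in wild type and 30, 30 and 24 in the knockout (log2 usage change -0.38 ± 0.16, unadjusted p = 0.0169, edgeR adjusted p = 0.99999). Bin 14 of Rims2, a coding exon of 131 bases at chr15:39472334-39472464, had 49, 46 and 58 reads against 57, 74 and 70 (0.29 ± 0.12, unadjusted p = 0.0231, edgeR adjusted p = 0.99999).

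The exon 5 copies of Snap25, whose sequences are given above, were compared by their share of reads. Exon 5b, the copy known to predominate in adult brain, took most reads everywhere. Exon 5a took 6.13%, 7.30% and 6.91% of the reads of both copies in wild-type Ammon's horn libraries, 8.68%, 7.15% and 7.30% in the knockout ones and 6.50% in the dentate gyrus (exact Clopper-Pearson 95% interval 5.91% to 7.13%, counting error only). The wild-type mean was 6.78% ± 0.60 (SD, n = 3) and the knockout mean 7.71% ± 0.84, and the groups overlapped (exact permutation test, two-sided p = 0.3, the smallest possible being 0.1). Knockout library 1 stood above the others, with an exact interval of 8.08% to 9.30%. In the exon-usage test Snap25 bin 8 (exon 5a) had a log2 usage change of 0.14 ± 0.06 in the knockout (unadjusted p = 0.0316, edgeR adjusted p = 0.99999) and -0.02 ± 0.09 in the dentate gyrus.

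**Figure D5:**
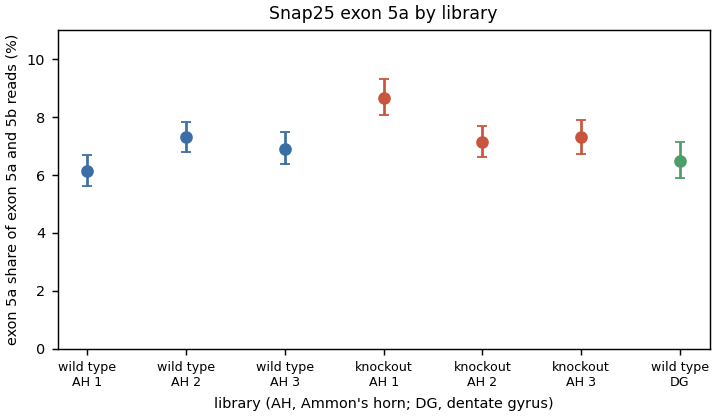
Share of exon 5a among reads of both copies of Snap25 exon 5, in percent, by library, with exact 95% intervals that cover counting error only. All 7 libraries lie between 6.13% and 8.68%.

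Between the regions, 3 of 851 bins tested were called, all used more in the dentate gyrus, against 0.213% of all 169072 bins tested. At an unadjusted p under 0.05 there were 18 (2.12%; all bins 3.89%). By gene, with Simes' method, only Syp was called (edgeR adjusted p = 0.0357; 1.4% of all genes). Each of the 3 is noncoding, occurs in 1 annotated transcript and holds few reads. Bin 5 of Syp, 59 bases at chrX:7639305-7639363, had 21, 18 and 16 reads in wild-type Ammon's horn libraries, 15, 23 and 19 in the knockout ones and 39 in the dentate gyrus (log2 usage change 1.04 ± 0.19, edgeR adjusted p = 0.0193). That was 0.0396% of the reads of Syp in wild-type Ammon's horn on average and 0.110% in the dentate gyrus. Bin 16 of Syp, at chrX:7645200-7647369, had 10 reads in each wild-type library, 12, 13 and 15 in the knockout ones and 25 in the dentate gyrus (1.20 ± 0.23; edgeR adjusted p = 0.0497).
Bin 21 of Unc13a, 362 bases at chr8:71642207-71642568 on the minus strand, had 18, 43 and 14 reads in wild-type Ammon's horn libraries, 16, 30 and 29 in the knockout ones and 73 in the dentate gyrus (0.87 ± 0.22; edgeR adjusted p = 0.0402). These calls depended on the libraries fitted: with 1 Ammon's horn library left out, between 0 and 3 bins were called, 0 without wild-type library 3 and 1 without wild-type library 1 or knockout library 2 or 3. Bin 16 of Syp was called in none of those 6 fits.

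The wider pathway was read from 4 lists of other genes, with calls from the same fits. None of their 82 tested genes was called in the knockout. In the dentate gyrus the active zone scaffold list had 10 genes higher and 3 lower of 20 tested, median log2 fold change 0.33. Ppfia2 (liprin) rose from 108 ± 3.12 CPM (SD, n = 3) to 213, Lin7c from 65.0 ± 6.22 to 128, Bzrap1 (RIM-binding protein 1) from 62.6 ± 8.90 to 113 and Erc2 (an ELKS protein) from 158 ± 10.5 to 255. Ppfia3, Apba1 and Lin7a fell, with log2 fold changes of -0.41, -0.40 and -0.36.

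Priming, fusion and disassembly partners had 2 genes higher and 6 lower of 18, median -0.12. Rph3a (rabphilin) rose from 159 ± 8.14 to 270.5 CPM and Napa, a cofactor of SNARE disassembly, from 135 ± 1.88 to 159. Cadps2, a priming factor of dense-core vesicles, fell from 107 ± 8.48 to 43.4 CPM, and the vesicle GTPases Rab3b, Rab3c and Rab3a had log2 fold changes of -0.97, -0.88 and -0.48. Other vesicle membrane proteins had 3 higher and 7 lower of 19, median -0.27. Synpr (synaptoporin), a relative of synaptophysin, rose from 84.3 ± 7.72 to 241 CPM (log2 fold change 1.51 ± 0.09, edgeR adjusted p = 4.4e-06) where Syp fell, and Sypl2 and Sv2c rose by 0.98 and 0.48 on the log2 scale. Sv2b fell from 614 ± 37.9 to 295 CPM, and Slc32a1, the vesicular GABA transporter and also 1 of the interneuron markers, from 58.6 ± 1.51 to 33.1, with Syngr3 and Sv2a at -0.36 and -0.28.

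Endocytosis genes had 4 higher and 6 lower of 25, median -0.13. Ston2, Sh3gl1, Itsn1 and Itsn2 rose, with log2 fold changes of 0.85, 0.58, 0.55 and 0.29. Ap2b1 and Ap2s1, subunits of the clathrin adaptor, fell by 0.54 and 0.42 on the log2 scale, Sh3gl2 (endophilin A1) by 0.50 and Eps15 by 0.38. Beside these stand the 11.2% higher and 10.9% lower among all genes tested and their median of -0.01. Of genes with at least 5 CPM over the wild-type libraries, 16.4% were higher and 17.3% lower. The lists were not restricted to that level. Whether any list differs from the others was not tested.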

How the data were processed

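The authors deposited raw counts in 2 forms, neither normalised: a table of counts per gene over the whole gene span, and 1 file per library of counts in exon bins in the style of DEXSeq. Per the submitters' processing notes the tools were Trim Galore 0.3.5, TopHat2 2.0.8b, bedtools 2.17.0 and DESeq2 1.0.19 with mm10, without the use of each; the strand setting is not given in the sources used here. RNA was prepared with Qiagen and Illumina TruSeq mRNA kits, per the labels. Between 1.80% and 2.09% of exon-file reads were ambiguous and between 3.52% and 4.83% lay in no bin, and both stayed out of totals.

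Counts were tested with edgeR 4.0.16 in R 4.3.3 (TMM, filterByExpr, quasi-likelihood F test, Benjamini-Hochberg over all genes tested). The knockout fit used the 6 Ammon's horn libraries, and the dentate gyrus fit all 7 in 3 groups. SE is the log2 fold change over the root of F. Exon usage used diffSpliceDGE with a minimum of 10 reads per bin in 3 or more libraries and of 2 such bins per gene. Exon lengths came from bins rebuilt from GENCODE M21. The scripts were tested on simulated data.

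Members and lists were chosen with earlier results of these data known. Named genes were the 6 of smallest p in the knockout, the 12 largest called changes per direction in the dentate gyrus among genes of at least 5 CPM over the wild-type libraries, the 2 highest per family per length, called bins or else the 3 of smallest p, the exon 5 copies of Snap25, and up to 4 called genes per direction in each list. Some genes that this rule takes are not reported here, in text or plots, though counts over the members include them. Of the other marker lists, astrocyte markers had 0 higher and 1 lower of 5 in the dentate gyrus, microglia 0 and 3 of 6, endothelium 0 and 1 of 3, CA2 and CA3 1 and 2 of 6, neocortex and subiculum 1 and 2 of 4, thalamus and habenula 0 and 0 of 4, and choroid plexus 0 and 0 of 8. In the knockout 1 oligodendrocyte marker was called lower and no other marker was called. Alternatives were RLE scaling, no count filter, DESeq2 1.42.0, limma 3.58.1 (voom), exon-bin sums, other library sets, a choroid plexus covariate, a bin minimum of 20 reads, and each Ammon's horn replicate left out; 2 were added after seeing the data, leaving out both choroid-rich knockout libraries, and fitting the dentate gyrus without mitochondrial, choroid plexus and oligodendrocyte marker genes.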

Additional observations from a re-analysis of the deposited data

How the results depend on the processing

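In the knockout comparison the count of genes called was 0 under every alternative that kept more than 1 knockout library. These had 3 to 7 genes at an unadjusted p under 0.05. The count of bins called was 0 under every alternative run. In the dentate gyrus the count of genes called ran from 26 (4 wild-type libraries only) to 36 (DESeq2), and from 31 to 35 with 1 Ammon's horn library left out. No called gene changed direction. The gene calls lost among the genes named here are given beside them in the report, apart from those with the 4 wild-type libraries only, where Syt13, Syt17, Syt11, Stx4a, Stx7 and Rims2 were not called (edgeR adjusted p = 0.0747, 0.0648, 0.0534, 0.0620, 0.0803 and 0.0529). Bins called in the dentate gyrus numbered 3, but 6 with limma-voom diffSplice and 0 to 3 with 1 library left out. The uncalled usage changes of Snap25 crossed 0: bin 9 in the knockout, 0.0018, became -0.0045 with limma-voom and ran from -0.028 to 0.026 with 1 library left out (-0.028, -0.014 and -0.0019 without wild-type replicate 1, knockout replicate 3 and knockout replicate 2). In the dentate gyrus bin 8, -0.017, ran from -0.099 to 0.033 (0.033 and 0.015 without wild-type replicates 2 and 3), and bin 9, 0.029, from -0.00085, without wild-type replicate 1, to 0.053. The cause was not tested. No paired analysis was possible because the labels give the groups no shared replicate numbers. The single dentate gyrus library, and the 10 to 73 reads in its called bins and their Ammon's horn counterparts, limit precision.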
